A study of Saccharomyces cerevisiae with 16 samples.

Results

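Stable unannotated transcripts (SUTs) are noncoding RNAs of budding yeast that were found in wild-type cells, outside the annotated genes. The members described here were every row whose class in the deposited table was SUT, which gave 719 of 12670 rows. The rule used no measured value. Names with 3 digits were carried by 717 of them, and the other 2, SUT1 and SUT2, are dealt with below because their counts were those of protein-coding genes.

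SUTs are made by RNA polymerase II (RNAPII), capped and polyadenylated. Many arise from promoters shared with a coding gene or lie antisense to one. They are set apart from cryptic unstable transcripts (CUTs), which the nuclear exosome removes so fast that they are seen mainly when it fails. SUTs reach the cytoplasm more often, where decapping, the 5′ to 3′ exonuclease Xrn1 and nonsense-mediated decay act on them. Rrp6 is the 3′ to 5′ exonuclease found only on the nuclear exosome. The exosome meets short noncoding RNAs through the Nrd1-Nab3-Sen1 (NNS) termination complex, and Rtr1 is a phosphatase of the RNAPII C-terminal domain, to which Nrd1 binds.

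The cells were Saccharomyces cerevisiae of BY4741 background (mating type a), collected while growing exponentially (OD600 of 0.8). Ribosome-depleted total RNA was sequenced with strand information from 3 genotypes: wild type (WT, 4 cultures), a deletion of RRP6 (rrp6Δ, 3 cultures, numbered 1, 3 and 4) and a deletion of RRP6 together with RTR1 (rtr1Δ rrp6Δ, called the double deletion, 4 cultures). The rrp6Δ strain was a collection strain, and RTR1 was replaced in it by a kanamycin resistance cassette to give the double deletion, so both mutants share the same rrp6 allele. By the study's methods, cultures with the same replicate number were grown on the same day. The sample titles give the number as an RNA-Seq prep, so growth day and library preparation cannot be told apart. Growth day below stands for both.

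The libraries held 28765694 to 38578463 counts, with 0 to 14 SUT rows under 10 counts in each. RRP6 had 3605 to 5503 counts in WT and 8 to 22 in the mutants, and RTR1 had 417 to 762 counts where it was present and 35 to 56 in the double deletion. The 5 a-cell genes examined summed to 1437 to 2055 CPM (counts relative to the library size) in WT, against 29.3 to 33.6 CPM for the 4 α-cell genes. Of the BY4741 deletion markers, MET17 stayed between 0.605 and 3.59 CPM, while HIS3 (21.9 to 38.9 CPM) and URA3 (10.1 to 17.2 CPM) held reads in every library. LEU2 had no row among those used here.

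The table gives no position for a SUT. The RefSeq annotation of the same genome build (R64, equal to sacCer3) places 8 of the 719, counting SUT527 under its RefSeq name RUF20. The first 200 bases of 5 of them are shown, because they span the responses described below: SUT053 and SUT468 are a pair on opposite strands that both rose without Rrp6, SUT169 is antisense to a named gene and also rose, SUT126 fell just short of the call for lower, and SUT532 followed the growth day. Capitals mark the letters bound by Nrd1 (GTAA or GTAG) and by Nab3 (TCTT), searched on the transcribed strand only, with overlapping matches counted.
SUT053: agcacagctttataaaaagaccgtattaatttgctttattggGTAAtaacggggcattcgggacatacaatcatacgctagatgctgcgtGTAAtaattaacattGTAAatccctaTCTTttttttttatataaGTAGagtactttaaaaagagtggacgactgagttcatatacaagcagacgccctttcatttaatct
SUT468: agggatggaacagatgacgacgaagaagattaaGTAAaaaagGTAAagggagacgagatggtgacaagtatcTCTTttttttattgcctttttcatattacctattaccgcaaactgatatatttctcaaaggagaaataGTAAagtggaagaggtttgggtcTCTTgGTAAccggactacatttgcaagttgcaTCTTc
SUT169: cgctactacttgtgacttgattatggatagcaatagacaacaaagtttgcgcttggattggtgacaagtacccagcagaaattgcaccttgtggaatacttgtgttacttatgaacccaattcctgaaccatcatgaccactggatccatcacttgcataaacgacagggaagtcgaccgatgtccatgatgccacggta
SUT126: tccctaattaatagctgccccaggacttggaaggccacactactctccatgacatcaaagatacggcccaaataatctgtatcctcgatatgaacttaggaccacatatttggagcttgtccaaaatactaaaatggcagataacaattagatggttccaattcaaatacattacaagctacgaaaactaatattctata
SUT532: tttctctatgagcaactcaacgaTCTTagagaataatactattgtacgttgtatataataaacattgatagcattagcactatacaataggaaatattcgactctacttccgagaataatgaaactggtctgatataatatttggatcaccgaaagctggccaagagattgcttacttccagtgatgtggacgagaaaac
These stretches are chrIV:506334-506533 (+), chrIV:507251-507450 (−), chrVIII:378254-378453 (+), chrVII:660087-660286 (+) and chrVII:17510-17709 (−). SUT053 and SUT468 each held 4 Nrd1 matches, with 1 and 3 Nab3 matches. In these stretches SUT169 and SUT126 held neither motif, and SUT532 held 1 Nab3 match. Over the whole transcripts, Nrd1 and Nab3 matches numbered 18 and 17 in SUT053, 8 and 7 in SUT468 and 11 and 5 in SUT169. They numbered 9 and 9 in SUT126 and 2 and 5 in SUT532, with no allowance for length. The first 200 bases of 5868 annotated protein-coding genes of the nuclear genome were read on the sense strand. Of these, 65.1% held at least 1 Nrd1 match, 58% at least 1 Nab3 match and 2.95% at least 4 Nrd1 matches. On the reverse strand of the same stretches 79.2% held at least 1 Nrd1 match. They start at annotated genes and not at noncoding transcripts, so they are only a rough background for SUTs. A match is a description of letters, and binding was not measured here.

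SUT053 (chrIV:506334-507774, 1441 bases) encloses all 905 bases of SUT468 (chrIV:506546-507450) on the other strand, and the plus-strand gene MRH1 begins 372 bases past the SUT053 end. SUT169 (chrVIII:378254-379237) covers 946 bases of SPS100, a sporulation gene on the minus strand. SUT126 (chrVII:660087-661399) starts 316 bases past the end of NNF2, SUT390 (chrXVI:52977-53465) lies between APM1 and THI21, and SUT418 (chrXVI:588998-589830) lies 452 bases from YPR015C. SUT527 (chrVI:131061-131503, minus strand) lies 79 bases from the coding end of SEC4, which encodes a secretory GTPase, and SUT532 (chrVII:17213-17709, minus strand) lies between ADH4 and ZRT1. RefSeq notes describe SUT126 and SUT532 as acting in trans on transcription factors, SUT053 and SUT468 as modulating gene expression during steroid biosynthesis, SUT390 and SUT418 as affecting invertase secretion, and SUT527 as an essential RNA that pairs with the SEC4 mRNA.

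Together the SUT rows took a small and genotype-dependent share of all counts. The share was 0.373%, 0.365%, 0.394% and 0.4% in WT replicates 1 to 4. It was 0.636%, 0.628% and 0.583% in rrp6Δ replicates 1, 3 and 4. It was 0.495%, 0.565%, 0.553% and 0.557% in the double deletion. No group overlapped another. The mean share was 1.61 times the WT share in rrp6Δ cells (SD of the ratio 0.1) and 1.42 times in the double deletion (SD 0.1), and the double deletion stood at 0.881 of rrp6Δ (SD 0.066). Without the replicate 1 libraries these ratios were 1.57, 1.45 and 0.922. Of the counts outside ORF-T rows (transcripts of open reading frames), the SUT share was 1.23 and 1.11 times that of WT. On this measure double deletion replicate 1 (1.881%) lay within the WT range of 1.799 to 1.964% and replicate 2 (2.258%) within the rrp6Δ range of 2.253 to 2.407%. The counts outside ORF-T rows grew from 18.56 to 21.92% of all counts in WT to 25.03 to 27.88% in the mutants. All these totals are sums over rows, and some rows had identical counts, so a read may enter more than once. Shares and CPM are relative measures, and a change in RNA per cell cannot be told apart from a change in the rest of the library.

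**Figure D1:**
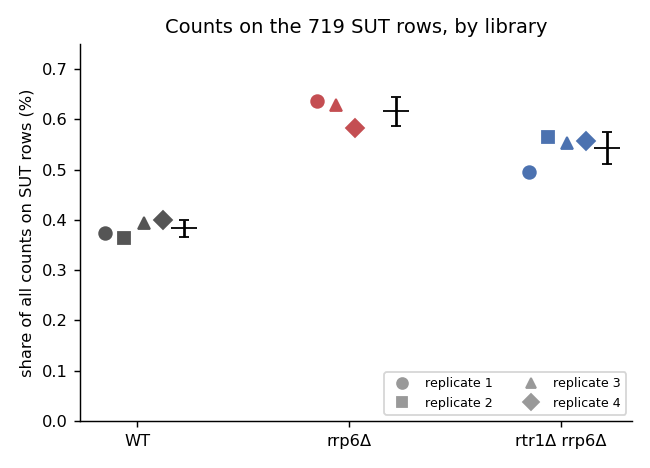
Share of all counts on the 719 SUT rows in each library, in percent, by genotype; marker shapes give the replicate number and the black bar with whiskers the mean and SD. WT libraries lay at 0.365 to 0.4%, rrp6Δ libraries at 0.583 to 0.636% and double deletion libraries at 0.495 to 0.565%.

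Loss of Rrp6 raised many SUTs, but moderately, and left many others near their WT level. In rrp6Δ cells 335 of the 719 SUT rows were higher than in WT and 24 lower, by a change of 1.5-fold or more whose adjusted p did not exceed 0.05 (edgeR quasi-likelihood test with Benjamini-Hochberg adjustment over all rows). That is 46.6% higher and 3.34% lower, where 36.2% of all rows were higher and 7.7% lower. The replicates of the compared genotypes did not overlap for 318 of the 335 (94.9%) and for all 24, beside 96.7% of the higher and 92.5% of the lower calls over all rows. A rise of at least 2-fold was reached by 221, of at least 4-fold by 57 and of at least 8-fold by 7. The SUT median was 0.55 on the log2 scale, a fold of 1.47, with quartiles of 0.04 and 1.19. The median of all rows was -0.02 and moved between -0.13 and 0.28 with the scaling, which shifts every row alike. The SUT median was 0.57 above it. The 95% interval of the change lay within 1.5-fold on either side for 124 SUT rows, or 17.2%, against 37.4% of ORF-T rows and 1.9% of CUT rows.

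The other noncoding classes responded over a wide range. Among the 844 CUT rows 90.4% were higher and the median fold was 6.42. CUTs are seen mainly when the exosome fails and SUTs were found in WT cells, so part of this difference is built into the classes. Among the 1442 Nrd1-unterminated transcripts (NUTs) 84.7% were higher, with a median fold of 3.45, and among the 240 Ssu72-restricted transcripts (SRTs) 69.2%, with 2.55. Of 3055 antisense transcripts (ASTs) 52.1% were higher, with a median fold of 1.7, but that class had been kept by the study because its members changed in rrp6Δ cells. Of 5836 ORF-T rows 4.16% were higher and 12.7% lower, and their median was -0.29. The median SUT therefore lay between the antisense rows and the 376 rows of the class labelled MAN, whose median fold was 1.31. The SUT and CUT distributions overlapped in part: 15 SUT rows (2.09%) rose by the CUT median or more, and 66 CUT rows (7.82%) lay at or under the SUT median. Classes also differ in transcript length, and its part in these shares was not tested.

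**Figure D2:**
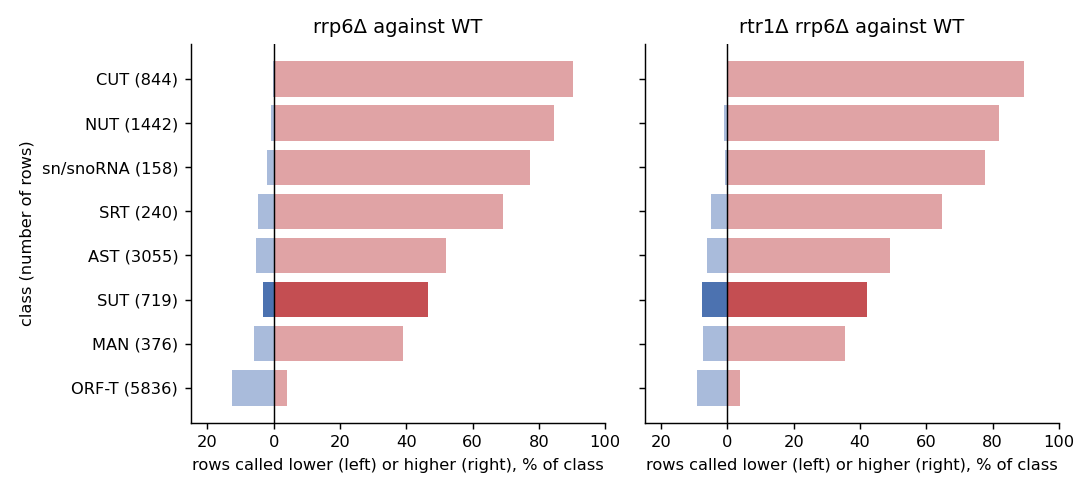
Percent of the rows of each transcript class called higher (red, to the right) or lower (blue, to the left) than WT, in rrp6Δ cells and in the double deletion; the number of rows stands beside each class, and SUTs are in the darker shade. SUTs reached 46.6% higher in rrp6Δ and 42.1% in the double deletion, against 90.4% and 89.6% of CUTs and 4.16% and 3.89% of ORF-T rows.

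How often a SUT rose varied little with its level. With rows binned by mean CPM over the 11 libraries, 15 of 28 SUTs under 1 CPM were higher in rrp6Δ cells, 53 of 117 at 1 to 2 CPM, 109 of 239 at 2 to 5 CPM, 103 of 196 at 5 to 10 CPM and 55 of 139 at 10 CPM and over. These are shares of 39.6 to 53.6%. Over all rows the share fell from 72.4% under 1 CPM to 10.8% at 10 CPM and over, where 6696 rows, most of them coding, were found. SUTs were thus above all rows of their level only in the highest bin (39.6% against 10.8%), and below them at 2 to 5 CPM (45.6% against 69%). CUTs stayed at 80.5 to 94.8% and were above SUTs in all 5 bins. SUT levels themselves spread widely: group means in WT ran from 0.0639 to 96.6 CPM with a median of 3.2, and the median in rrp6Δ cells was 5.28 CPM. The number under 1 CPM was 71 in WT, 12 in rrp6Δ cells and 28 in the double deletion. These levels are per transcript and not per length, so they order no transcript above another.

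The 8 largest rises started from 0.422 to 4.26 CPM in WT libraries. SUT535 had 0.778, 0.754, 0.941 and 0.534 CPM in the 4 WT libraries, 10.8, 10.6 and 10.8 CPM in rrp6Δ and 11.8, 7.87, 9.65 and 11.3 CPM in the double deletion. Each mutant library was over every WT library, and the rise in rrp6Δ cells was 14.3-fold (log2 3.84, SE 0.19, adjusted p = 9.32e-09 by edgeR). SUT503 stood at 2.72, 2.36, 2.01 and 1.57 CPM in WT, 26.2, 29.3 and 27 CPM in rrp6Δ, and 29.1, 27.9, 40.1 and 25.3 CPM in the double deletion. The rise of SUT503 was 12.8-fold (log2 3.67, SE 0.2, adjusted p = 1.58e-08 by edgeR), and again no library of WT reached a mutant library.

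SUT279 rose 9.4-fold, SUT467 8.24-fold and SUT100 8.07-fold, and none of their WT libraries was over 2.12 CPM. SUT349, SUT465 and SUT720 rose 7.74-fold, 7.51-fold and 7.24-fold. SUT720 had 3.68, 4.26, 3.8 and 3.66 CPM in WT and 30.7, 27.5 and 25.4 CPM in rrp6Δ, with an SE of 0.12 on the log2 scale. The row with the largest fitted change, SUT778, was below the minimum of 50 counts used for naming. It had 1, 5, 0 and 2 counts in WT and 30, 37 and 41 in rrp6Δ.

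**Figure D3:**
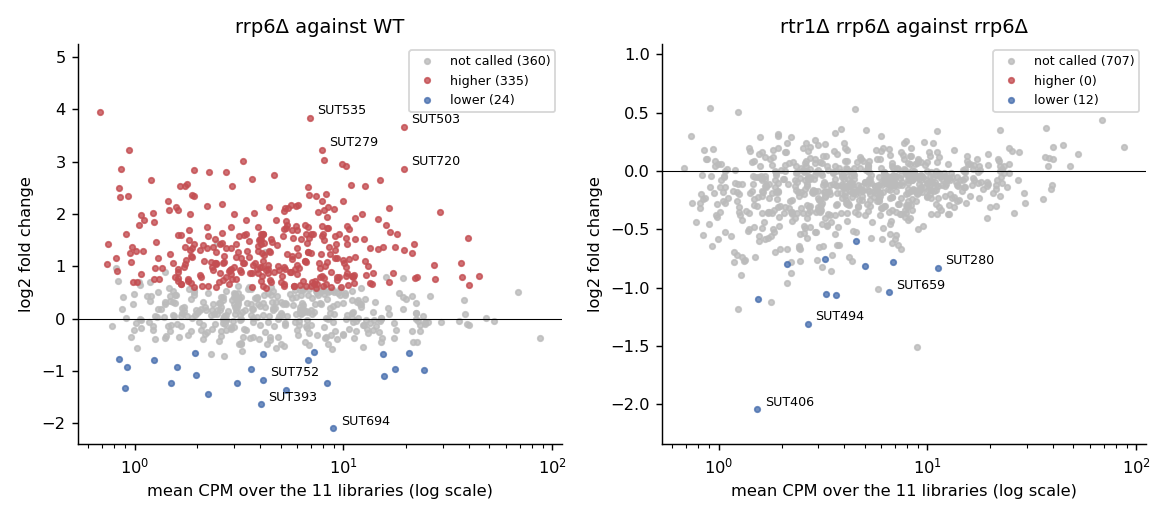
Log2 fold change of each of the 719 SUT rows against its mean CPM over the 11 libraries (log scale), for rrp6Δ against WT (left) and for the double deletion against rrp6Δ (right); colours give the call, with counts in the legend. On the left 335 rows lay above and 24 below, and SUT535 (3.84) and SUT694 (-2.10) are at the edges. On the right no row was called higher and 12 were called lower, down to -2.04 for SUT406.

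A small group of SUTs went the other way. SUT694 had 14.3, 20.8, 18.6 and 19.9 CPM in WT, 2.75, 5.27 and 4.79 CPM in rrp6Δ and 1.82, 2.96, 3.77 and 3.57 CPM in the double deletion. It fell by 2.10 on the log2 scale in rrp6Δ cells (SE 0.27, adjusted p = 2.24e-05 by edgeR), a 4.29-fold drop with no overlap of the replicates. Its counts followed those of the antisense row of SUL2, which encodes a sulfate permease, and SUL2 mRNA itself rose by 1.02 (adjusted p = 0.00203 by edgeR).

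SUT393 was the next, at 7.49, 6.82, 6.62 and 8.04 CPM in WT against 3.2, 1.76 and 2.04 CPM in rrp6Δ (3.12-fold lower, adjusted p = 6.57e-05 by edgeR). SUT394, next to it in number, was 2.73-fold lower. SUT138, SUT305, SUT321 and SUT565 were 2.59-fold, 2.36-fold, 2.35-fold and 2.35-fold lower. SUT752 had the smallest SE of these 8, at 6.43, 6.46, 6.62 and 6.55 CPM in WT and 2.85, 3.05 and 2.78 CPM in rrp6Δ, which is 2.25-fold lower (SE 0.13 on the log2 scale). In all, 11 of the 24 fell at least 2-fold.

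Of the 8 SUTs with a RefSeq position, 5 rose in rrp6Δ cells, beside 46.6% of all SUT rows and 36.2% of all rows. SUT053 and SUT468, among these 5, lie at 1 locus. Levels per kilobase used the RefSeq length, which may differ from the interval that was counted. On this measure SUT527 was the highest of the 8 in WT at 11.8 ± 1.68 CPM per kb (SD, n = 4). The lowest was SUT418 at 0.655 ± 0.157. SUT126, SUT390, SUT532 and SUT169 followed SUT527 at 4.53 ± 0.375, 4.44 ± 0.284, 5.45 ± 1.97 and 3.83 ± 0.123. SUT126, SUT390 and SUT532 overlapped one another across the WT libraries. SUT468 and SUT053 lay below them at 2.6 ± 0.279 and 1.89 ± 0.33.

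SUT527 had 5.58, 5.02, 6.05 and 4.33 CPM in WT, 24.8, 22.9 and 20.8 CPM in rrp6Δ and 25.2, 19.7, 26.3 and 21.6 CPM in the double deletion, a 4.35-fold rise in rrp6Δ cells (adjusted p = 7.96e-08 by edgeR). Both mutants were over every WT library, and they overlapped each other. SUT053 went from 2.09, 2.75, 3.23 and 2.84 CPM in WT to 13.7, 18.1 and 16.5 CPM in rrp6Δ, a 5.88-fold rise. Its partner on the opposite strand, SUT468, went from 2.33, 2.03, 2.42 and 2.64 CPM to 5.79, 5.99 and 5.03 CPM, a 2.37-fold rise. By RefSeq length, SUT468 was the higher of the pair in WT cells, though the ranges nearly met (2.25 to 2.92 against 1.45 to 2.24 CPM per kb). In rrp6Δ cells SUT053 was the higher (9.49 to 12.6 against 5.56 to 6.62 CPM per kb).

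SUT169, antisense to SPS100, had 3.89, 3.61, 3.83 and 3.77 CPM in WT and 10.2, 11.7 and 10.4 CPM in rrp6Δ, a 2.85-fold rise (SE 0.15 on the log2 scale, adjusted p = 1.81e-06 by edgeR). SUT418 rose 5.14-fold from 0.424, 0.525, 0.502 and 0.731 CPM to 1.49, 3.66 and 3.36 CPM. SUT390 was at 2.37, 2.1, 2.16 and 2.05 CPM in WT and 3.1, 3.37 and 2.89 CPM in rrp6Δ. Its groups did not overlap (adjusted p = 0.00708 by edgeR), but the difference of 1.44-fold stayed under the 1.5-fold minimum and passed it, at 0.70 and 0.82 on the log2 scale, under upper-quartile scaling and under scaling by ORF-T rows.

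SUT126 was at 5.97, 5.57, 5.61 and 6.64 CPM in WT and 3.58, 4.18 and 4.26 CPM in rrp6Δ, and no mutant library reached a WT library. The change of -0.57 (SE 0.12, adjusted p = 0.0013 by edgeR) fell just short of the fold minimum, and with the replicate number as a block it was -0.60 (adjusted p = 0.000276) and passed it. It ranged from -0.68 with RLE scaling or DESeq2, which also passed, to -0.28 (adjusted p = 0.0707) with TMM from ORF-T rows. SUT532 differed by -0.12 (95% interval -0.90 to 0.66), with libraries from 2.11 to 4.17 CPM in WT and from 1.62 to 3.8 CPM in rrp6Δ.

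Further SUTs that have been studied singly moved in different degrees. SUT719, which is linked to the galactose regulator gene GAL80, had 0.884, 0.689, 0.816 and 0.9 CPM in WT and 0.95, 1.9 and 1.96 CPM in rrp6Δ (log2 0.97, adjusted p = 0.0124 by edgeR). The call rested on few reads and was lost without rrp6Δ replicate 3 or replicate 4. SUT075 rose 1.75-fold from 19.9, 13.9, 15.2 and 13.3 CPM to 31, 26.1 and 24.4 CPM. SUT457, linked to telomere maintenance, had 7.35, 6.43, 6.71 and 7.71 CPM in WT and 6.97, 8.81 and 6.81 CPM in rrp6Δ, a difference of 0.09 with a 95% interval of -0.19 to 0.38.

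The SUT rows with the most WT counts were among those with no called change in rrp6Δ cells. They were SUT673, SUT2, SUT350, SUT670, SUT014, SUT681, SUT452 and SUT1. SUT673 ran from 79.8 to 110 CPM in WT and from 52.1 to 92.2 CPM in rrp6Δ, and SUT350 from 37.6 to 57.6 CPM and from 59.4 to 79.7 CPM (log2 0.50, adjusted p = 0.0202 by edgeR, under the fold minimum). For SUT681 the change was -0.12 with a 95% interval of -0.36 to 0.13, and for SUT452 it was -0.04 with an interval of -0.22 to 0.14. SUT602, SUT367, SUT510, SUT687, SUT658 and SUT745 had the changes nearest to 0 among rows with at least 50 counts in every genotype. For SUT658, at 15.3, 17.2, 14.8 and 15.3 CPM in WT and 14.3, 16.5 and 15.9 CPM in rrp6Δ, the interval was -0.24 to 0.23.

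The double deletion gave fewer rises and more falls against the same WT libraries. Here 303 SUT rows were higher (42.1%) and 55 lower (7.65%), where 34.5% of all rows were higher and 6.55% lower. The SUT median was 0.41, a fold of 1.33, and 0.44 above that of all rows. A 2-fold rise was reached by 189 and a 4-fold rise by 41. SUT503 led with 3.83, followed by SUT535 with 3.75 and SUT279 with 3.50 on the log2 scale. SUT780 and SUT442, the others not named so far among the 8 largest, changed by 3.40 and 3.01. SUT442 had 0.389, 0.557, 0.721 and 0.422 CPM in WT, 4.08, 3.48 and 3.47 CPM in rrp6Δ and 4.67, 3.27, 4.33 and 4.75 CPM in the double deletion, so that the 2 mutants overlapped and WT stood alone.

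SUT694 was also the row with the largest fall in the double deletion (-2.60), with SUT394 (-1.88) and SUT393 (-1.83) next. SUT491 was at 3.11, 3.38, 3.61 and 3.01 CPM in WT, 1.49, 1.58 and 1.56 CPM in rrp6Δ and 0.63, 1.31, 0.996 and 0.904 CPM in the double deletion, 3 levels with no overlap. It fell by 1.76 against WT (adjusted p = 4.28e-06 by edgeR). SUT532 fell by 1.08 (adjusted p = 0.0183 by edgeR), at 1.99, 0.811, 1.31 and 1.05 CPM, and that call was lost without WT replicate 1 or double deletion replicates 2 or 4 and under scaling by ORF-T rows. Both comparisons with WT share the WT libraries, so likeness between them is built in.

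Loss of Rtr1 on top of Rrp6 lowered a few SUTs and raised none that passed the test. Against rrp6Δ the double deletion had 12 SUT rows lower (1.67%) and 0 higher by edgeR, where 0.758% of all rows were lower and 0.142% higher. The share lower was 1.39% of NUT rows, 1.28% of AST rows, 0.237% of CUT rows and 0.308% of ORF-T rows. In the level bins under 10 CPM, 1.11 to 1.6% of all rows were lower, beside 0 to 2.51% of SUT rows. At an unadjusted p under 0.05 there were 102 SUT rows lower and 5 higher, where 7.29% of all rows were lower and 4.19% higher. DESeq2 called 28 lower and 0 higher, beside 1.67% and 0.245% of all rows. The SUT median was -0.13, as far below the median of all rows, and 547 of the 719 rows lay under 0. CUT, NUT and AST medians were -0.12, -0.11 and -0.06, and that of ORF-T rows was 0.06. The 95% interval lay within 1.5-fold for 356 SUT rows, or 49.5%.

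A fit with the replicate number as a block removes differences between those numbers. It called 46 SUT rows lower (6.4%) and 0 higher, beside 3.37% of all rows lower and 0.545% higher. The 46 included all 12. Of the 46, 14 were higher in rrp6Δ cells than in WT, 31 were not called there and 1 was lower. Of all SUT rows 46.6% were higher in rrp6Δ cells. Both comparisons use the rrp6Δ libraries, with opposite sign, so these calls are not independent. The block brought in SUT116, with a change of -1.48, SUT491 with -0.75, SUT086 with -1.39 and SUT749 with -1.25, the last 2 named after their values were seen. It also brought in SUT532, with -0.82 (adjusted p = 0.00937) in place of -0.96 (adjusted p = 0.329).

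SUT406 showed the largest drop, from 3.48, 1.67 and 2.33 CPM in rrp6Δ to 0.762, 0.628, 0.529 and 0.502 CPM in the double deletion (log2 -2.04, SE 0.37, adjusted p = 0.0259 by edgeR). Its WT libraries stood at 2.3, 2.46, 1.35 and 0.872 CPM, also above every double deletion library. SUT494 rose from 2.19, 2.56, 1.73 and 1.57 CPM in WT to 5.13, 3.86 and 4.87 CPM in rrp6Δ (2.3-fold) and was back at 1.95, 1.67, 1.59 and 2.21 CPM in the double deletion. The last differed from rrp6Δ by -1.31 (SE 0.19, adjusted p = 0.0079) and from WT by -0.11 (adjusted p = 0.638). Of the 12 it was the only row called higher in rrp6Δ cells, and with the block SUT406 was called higher there too (0.69, adjusted p = 0.0086, in place of 0.52, adjusted p = 0.191).

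SUT280 varied little within each genotype, at 17, 13.6, 14.6 and 16.3 CPM in WT, 11.4, 11.5 and 12.6 CPM in rrp6Δ and 6.56, 6.62, 6.76 and 6.63 CPM in the double deletion (log2 -0.83, SE 0.1, adjusted p = 0.0069 by edgeR). SUT659, SUT276, SUT039, SUT226 and SUT316 changed by -1.04, -1.05, -1.06, -1.10 and -0.81 against rrp6Δ. The remaining rows were SUT301 (-0.80), SUT292 (-0.78), SUT490 (-0.75) and SUT059 (-0.60), named after their values were seen. For all 12 the double deletion and rrp6Δ libraries did not overlap, which held for all 96 rows called lower in the whole table.

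How many rows passed depended on the libraries kept. The count lower was 4 without rrp6Δ replicate 1 or replicate 3 and 2 without rrp6Δ replicate 4. It was 4, 3 and 4 without double deletion replicates 2, 3 and 4, and 10 without its replicate 1. SUT280 was called in each of these fits and SUT494 in all but the fit without rrp6Δ replicate 4.

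**Figure D4:**
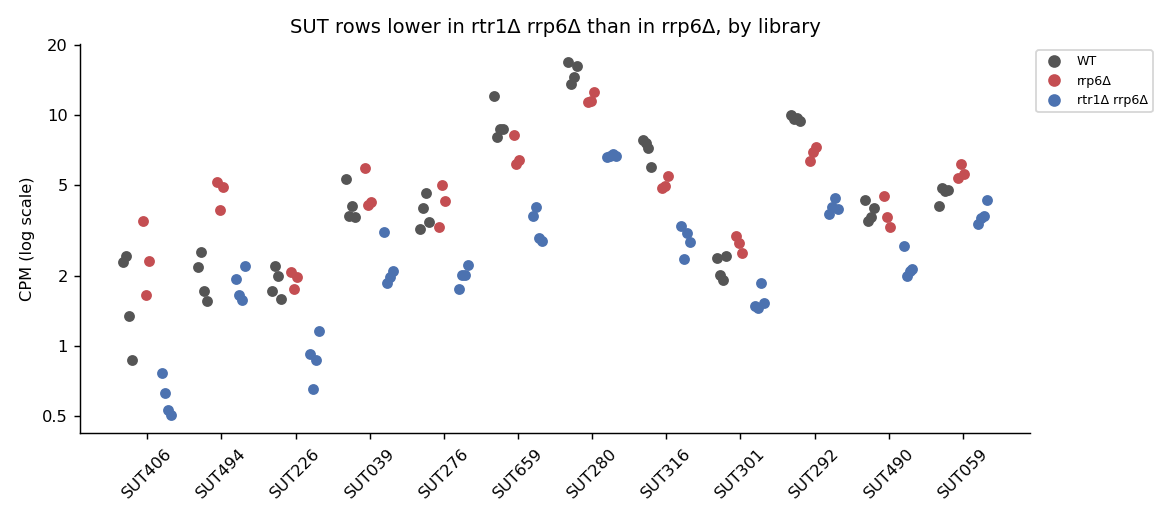
CPM (log scale) of the 12 SUT rows lower in the double deletion than in rrp6Δ, a point per library, ordered by fold change and coloured by genotype. For each row all 4 double deletion points lie below all 3 rrp6Δ points, and for SUT494 the double deletion points (1.59 to 2.21 CPM) are among those of WT (1.57 to 2.56 CPM).

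SUTs differed between growth days about as often as all rows did. In a fit with genotype and replicate number as terms, replicate 1 differed from the mean of the other days for 34 SUT rows upward (4.73%) and 62 downward (8.62%), where 5.06% of all rows were higher and 8.05% lower. SUT303 had 0.53 CPM in WT replicate 1 and 2.36, 3.39 and 3.29 CPM in the others. In rrp6Δ it had 1.27 CPM in replicate 1 and 6.51 and 9.77 CPM in the others, and in the double deletion 0.861 CPM against 3.79, 3.46 and 10.9 CPM. Replicate 1 was the lowest library of each genotype, and the difference was -2.52 (SE 0.27, adjusted p = 1.06e-05 by edgeR).

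SUT224, SUT068 and SUT357 were low in replicate 1 in the same way, by 4.95-fold, 2.88-fold and 2.82-fold. SUT357 had 2.23, 2.47 and 2.62 CPM in the replicate 1 libraries of WT, rrp6Δ and the double deletion, while the other libraries held 5.21 to 8.55 CPM. SUT575 was high in replicate 1, at 22.2, 24.4 and 19.6 CPM in the 3 genotypes against 7.96 to 10.8 CPM elsewhere (log2 1.24, SE 0.08, adjusted p = 2.85e-07 by edgeR). SUT129 (1.15), SUT116 (1.12) and SUT532 (0.98) were high as well. For SUT116 the day and the genotype both showed: replicate 1 held 16, 20 and 8.81 CPM in WT, rrp6Δ and the double deletion, and the other libraries 6.3 to 7.87, 9.99 to 10.9 and 3.11 to 3.95 CPM. What set the replicate 1 day apart was not tested.

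With the growth day as a block, some of these rows passed against WT where they had not before. In rrp6Δ cells SUT224 changed by 1.41 (adjusted p = 2.03e-05, against 0.0701 without the block) and SUT303 by 1.22 (adjusted p = 0.000592, against 0.165). In the double deletion they changed by 1.11 (adjusted p = 8.81e-05, against 0.138) and 0.89 (adjusted p = 0.00328, against 0.266). There SUT116 changed by -0.98 (adjusted p = 4.15e-06, against 0.0517).

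**Figure D5:**
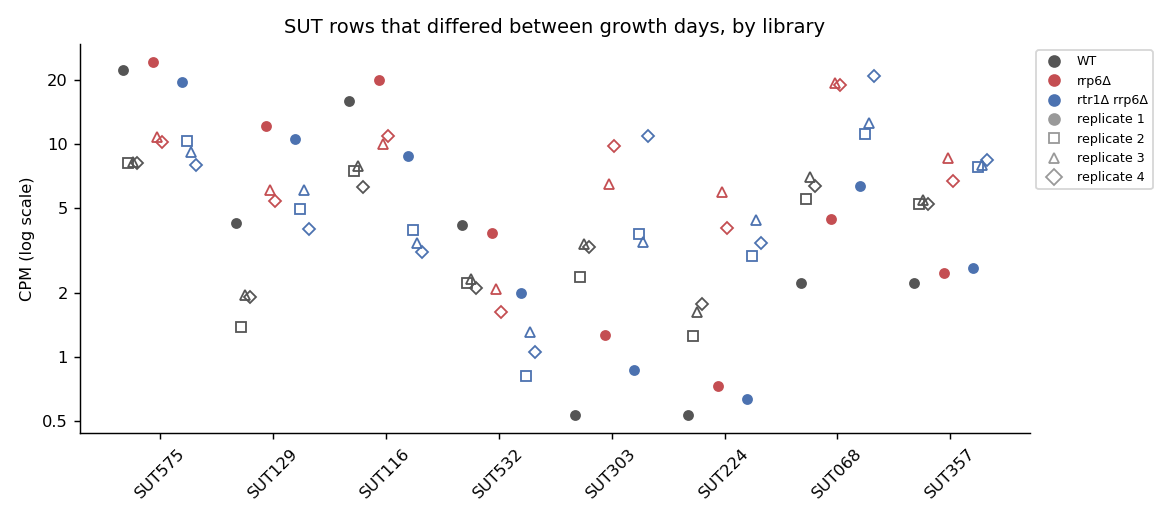
CPM (log scale) of the 8 SUT rows named for their difference between growth days, by library; colours give the genotype, shapes the replicate, and filled symbols replicate 1. SUT575, SUT129, SUT116 and SUT532 were highest in replicate 1 of every genotype, and SUT303, SUT224, SUT068 and SUT357 lowest.

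Many SUT rows had counts close to those of another row. Of 641 SUT rows with a mean of at least 50 counts, 224 had another row whose counts were within 10% of theirs in every library, in 332 pairs. These were AST rows for 120 SUTs, MAN rows for 90, NUT rows for 84, SRT rows for 22 and ORF-T rows for 5. For 10 SUTs the counts were identical in all 11 libraries, as in SUT204, which equalled NUT0387 and MAN_Unit192. Matches can also arise without shared reads: SUT126, on chromosome VII, matched YKL136W of another chromosome. How many of the 224 share reads was not tested. A match on counts carries the response with it, so response by matched class is a description. Higher in rrp6Δ cells were 66.7% of SUTs matched to a NUT and 35.6% of those matched to a MAN row. Of the 417 with no match it was 48.2%.

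SUT2 equalled the row of the protein-coding gene YPR009W in every library, and SUT1 was within 10% of YGL162W. RefSeq gives these genes the symbols SUT2 and SUT1, which encode transcription factors, so both rows hold mRNA reads under a shared name. Neither was called in rrp6Δ cells (-0.04 and 0.08), and leaving both out changed no count. SUT670, matched to YMR209C among others, changed by 0.01. SUT098, matched to NUT0214, rose 1.77-fold from 28.7, 29.4, 28.7 and 24.5 CPM to 57.3, 48.5 and 41.6 CPM.

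For 18 SUTs the matching row was the antisense row of a named ORF. The SUT loci that RefSeq places lie on the plus strand up to SUT418 and on the minus strand from SUT468. Taking that order to hold for all numbers, 16 of the 18 could be checked, and 15 were opposite to their ORF. SUT230 was not. Of the 18, 9 SUTs were higher in rrp6Δ cells, beside 46.6% of all SUT rows. The sense mRNA was lower for 2 of these 9 and not called for 7. Of 8 SUTs not called, the sense mRNA was higher for 2 and not called for 6. Of all ORF-T rows 12.7% were lower and 4.16% higher. Such pairs exist only for antisense rows, which the study kept because they changed in rrp6Δ cells. SUT641, matched antisense of CYC1 (cytochrome c), rose by 2.12 in rrp6Δ cells, and CYC1 mRNA changed by -0.17 (adjusted p = 0.372 by edgeR). SUT003, matched antisense of CYC3 (cytochrome c heme lyase), rose by 1.62, and CYC3 fell by 0.72. SUT256, matched antisense of XYL2 (xylitol dehydrogenase), rose by 1.73, and XYL2 fell by 0.95 (adjusted p = 0.0383 by edgeR). XYL2 was low and its groups overlapped, at 1.93 to 3.11 CPM in WT and 0.538 to 2.12 CPM in rrp6Δ.

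The opposite arrangement was seen for SUT694 and SUL2, given above. SUT292 had exactly the counts of the antisense row of SMA2 (a spore membrane gene), at 10, 9.61, 9.66 and 9.45 CPM in WT, 6.3, 6.94 and 7.26 CPM in rrp6Δ and 3.71, 3.98, 4.36 and 3.92 CPM in the double deletion. SMA2 rose by 1.91 in rrp6Δ cells. SUT128 changed by -0.08 while MEP1 (an ammonium permease), to which it was matched antisense, rose by 1.26. Among the 12 SUTs lower in the double deletion than in rrp6Δ, 5 were such matches: SUT276 (EST1), SUT280 (YLR278C), SUT292 (SMA2), SUT490 (SIZ1) and SUT659 (NNK1). The mRNA of none of these 5 genes was called in that comparison, with changes of -0.16 to 0.01.

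Most genes of the decay and termination machinery were not called between genotypes. Of 18 genes of the nuclear exosome and the TRAMP complex, 1 fell in rrp6Δ cells, RRP6 itself, and 0 rose by edgeR, where 12.7% of ORF-T rows were lower and 4.16% higher. On the replicate 1 growth day 4 of these 18 were higher, with a median of 0.49, beside 5.06% of all rows. A list of 20 genes held those of decapping, Xrn1 and nonsense-mediated decay, together with the SKI genes. Of these 20, 0 were called in any of the 3 comparisons. Their median was -0.30 in rrp6Δ cells beside an ORF-T median of -0.29. LSM1, part of the decapping activator ring, had the smallest adjusted p, with a mean of 117 CPM in WT (SD 5.03, n = 4) against 85.2 CPM without Rrp6 (SD 2.52, n = 3). Of 23 genes of the NNS complex and the cleavage factors 1 rose, NRD1, from 64.6 ± 14.2 to 198 ± 24.9 CPM (log2 1.62, adjusted p = 2.69e-06 by edgeR). NRD1 was at 197 ± 17.5 CPM in the double deletion (n = 4), where SSU72, a C-terminal domain phosphatase, also passed (17.5 ± 1.54 CPM in WT and 29.7 ± 3.07 CPM, n = 4 in each). Of 27 chromatin factors that hold back antisense transcription 0 rose by edgeR and 3 fell in rrp6Δ cells, with a median of -0.34 beside the ORF-T median of -0.29 and the 12.7% of ORF-T rows lower. They were the histone chaperone gene ASF1 (-0.76), POB3 of the FACT complex (-0.66) and SPT5, an elongation factor gene (-0.83). In the double deletion only HIR2 (-0.60) of these 27 passed, downward. None of the 4 lists held a gene called between the double deletion and rrp6Δ.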

How the data were processed

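The authors aligned strand-specific reads to sacCer3 with STAR 2.5.2b, counted them per annotation with featureCounts of Subread 1.5.0 and deposited a table of 12670 transcripts. The strand setting of the counting was not given in the sources used here. The table's legend calls the values normalized, but all deposited values were whole numbers with differing library totals, so they were treated as raw counts. Of 16 samples in 4 groups, 11 libraries of 3 groups were analysed. The other 5 samples were not analysed here, 1 further per-sample column was not used, and 6 empty lines were dropped. Samples were mapped to columns by their labels. The spike-in RNAs were not used.

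Counts were fitted in edgeR 4.0.16 (R 4.3.3, limma 3.58.1) with the quasi-likelihood test, 1 mean per genotype over all 11 libraries, trimmed mean of M-values (TMM) scaling over all rows and filterByExpr, which removed 0 rows. A row was called at a Benjamini-Hochberg adjusted p of at most 0.05 over all 12670 rows and a change of at least 1.5-fold. CPM use the TMM library sizes, intervals are 95%, and tables were made in Python 3.11.15. The procedure was tested on simulated data. Library totals bound the counting precision: a row with 0 counts allows up to 3 counts in that library. Without a block, the p-values measure the spread between cultures grown on separate days. Where the replicate number is in the fit (block and growth-day tests), they measure the spread left once it is taken out.

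The study's methods state that all genotypes of a replicate number were grown on the same day, so the number pairs the samples. Deviations from the group means correlated with r of 0.331 to 0.862 in the 10 same-numbered pairs of libraries and -0.719 to 0.417 in the others.

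Named rows were the 8 largest rises and 8 largest falls per comparison. These were taken among called rows with a mean of at least 50 counts in 1 group and no overlap of replicates. Next came the 8 with most WT counts and the 6 nearest to 0 with at least 50 counts in every group. The others were the 4 largest in each direction for the growth day, 3 whose counts matched another row and SUTs studied singly in earlier work. Rows with a RefSeq position were added. The members and lists were chosen with earlier results of these data known. The alternatives were RLE and upper-quartile scaling, TMM from ORF-T rows, other filters and fold minimums, DESeq2 1.42.0, only the groups compared, a replicate block and leaving out each library. Fits without all replicate 1 libraries or without SUT1 and SUT2 were added after seeing the data.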

Additional observations from a re-analysis of the deposited data

Results flagged for a closer look

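Among the 60 SUTs named by rule above, the 4 libraries of a genotype were examined for a lowest or highest value that stood apart. Dixon's ratio of the gap to the range was used, at its 95% level. Of 122 groups of 4 libraries tested in all, 14 passed. Chance gives about 1 in 20 for independent groups, and rows of the same library are not independent. In 13 of the 14 the library was replicate 1, the growth day described above.

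In WT, replicate 1 stood above the other 3 libraries for SUT014 (65 CPM against 33.4 to 37.2), SUT116 (16 against 6.3 to 7.87), SUT2 (67.8 against 44.5 to 46.7), SUT452 (42.4 against 36.6 to 37.3), SUT532 (4.17 against 2.11 to 2.32), SUT575 (22.2 against 8.13 to 8.19) and SUT670 (56.1 against 43.7 to 45.1). It stood below them for SUT357 (2.23 against 5.21 to 5.43).

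In the double deletion, replicate 1 stood above the others for SUT116 (8.81 CPM against 3.11 to 3.95), SUT393 (2.95 against 1.73 to 1.81), SUT670 (64.1 against 42.2 to 45.6) and SUT687 (8.65 against 6.73 to 6.91), and below them for SUT357 (2.62 against 7.77 to 8.39). The remaining case was WT replicate 4 of SUT098, at 24.5 CPM against 28.7 to 29.4. SUT116, SUT357, SUT532 and SUT575 had been named for the growth day, so their place here follows from that choice. What set these libraries apart was not tested.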

How the results depend on the processing

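The direction of each SUT median held under every alternative run, and no named row reversed a call. Against the main median of 0.55 in rrp6Δ cells, RLE scaling and DESeq2 gave 0.44, upper-quartile scaling 0.73 and TMM from ORF-T rows 0.85, and leaving out single libraries gave 0.49 to 0.61. For the double deletion against WT (0.41) the values were 0.30, 0.30, 0.54 and 0.64, with 0.37 for only the 2 groups compared and 0.35 to 0.45 without single libraries. Between the double deletion and rrp6Δ (-0.13), upper-quartile scaling and TMM from ORF-T rows both gave -0.19, and leaving out libraries -0.15 to -0.09.

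Counts of lower SUTs were the least stable. The 24 lower in rrp6Δ cells became 15 with TMM from ORF-T rows, 16 with upper-quartile scaling, 36 with RLE scaling, 38 with DESeq2, 45 with no fold minimum, 11 at 2-fold and 17 to 28 without single libraries. The 55 lower in the double deletion became 32 with TMM from ORF-T rows, 45 with upper-quartile scaling, 79 with RLE scaling, 80 with DESeq2, 90 with no fold minimum, 22 at 2-fold and 53 to 59 without single libraries. The 12 lower than in rrp6Δ became 28 with DESeq2, 46 with the replicate block, 6 at 2-fold and 2 to 15 without single libraries. The 335 and 303 higher became 221 and 189 at 2-fold, 296 and 270 with RLE scaling, 300 and 272 with DESeq2, 398 and 329 with upper-quartile scaling, 433 and 361 with TMM from ORF-T rows and 295 to 345 and 283 to 307 without single libraries. Without all replicate 1 libraries the counts were 342 higher and 28 lower, 314 and 56, and 0 and 14.

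As a share of counts on rows other than ORF-T, the ratios of 1.61 and 1.42 became 1.23 and 1.11. Without single libraries they were 1.58 to 1.65 and 1.39 to 1.46, and 0.858 to 0.907 for the double deletion over rrp6Δ. For the named rows, 1709 values under alternatives kept their call, 55 lost it and 20 gained it. Besides SUT116, SUT126, SUT224, SUT303, SUT406, SUT491 and SUT532, given above, the replicate block changed no call of a named row in the 3 comparisons. Low counts limit rows such as SUT719 and SUT778, and the causes of these shifts were not tested.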
